A study of Mus musculus with 12 samples.

Results

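Processed pseudogenes are copies of spliced messenger RNAs that were written back into the genome. Ribosomal protein genes left more of them than almost any other gene family, since their messages are short and abundant in germ cells. Most lack a promoter and no longer encode a full protein, and many differ from the parent by a few bases only, so that a short read often matches parent and copy alike. The rows described here are the ribosomal protein pseudogenes of a gene count table of mouse mammary tumours. A row belonged to the set when its name was that of a ribosomal protein gene followed by -ps, with or without a number, and when it held 100 counts or more in at least 3 of 12 tumour libraries. Of 56860 genes in the table, 322 carried such a name and 167 met the count threshold, 91 of them copies of large subunit genes (Rpl) and 76 copies of small subunit genes (Rps). The gene named before -ps is called the parent, and the 167 pseudogenes had 51 parents, all of which had a row. The members were thus selected on their count level, so that level is described and not tested. The threshold takes raw counts from libraries of any genotype, so the choice is not free of the differences between genotypes, library totals among them. In all 12 libraries 139 members reached 100 counts. In no S1pr1_KO library did 10 reach it, in no C3_KO library did 1, and none reached it in no WT library. Members that passed through WT and C3_KO libraries alone had to have lower counts in S1pr1_KO tumours, and counts and medians over the 167 include them.

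Of the 155 rows below the threshold, 35 had no count in any library. The members just inside it were Rpl38-ps1 and Rps12-ps2, whose third-highest counts over the libraries were 101 and 103. The rows just outside it were Rps7-ps2 and Rpl21-ps12, at 96 and 91 counts.

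All 12 tumours came from mice with the MMTV-PyMT transgene, an oncogene (polyoma middle T) under a promoter active in the mammary gland, and were taken at 4.5 months. Per the design text the 4 WT tumours carried MMTV-Cre too, although the strain label given for them lists MMTV-PyMT only. The 4 C3_KO tumours carried MMTV-Cre and the C3Tdt allele of complement component 3, and the 4 S1pr1_KO tumours carried MMTV-Cre and floxed S1pr1, the gene of a sphingosine-1-phosphate receptor. The labels give no batch or litter by which breeding or handling could be told apart from genotype. The MMTV promoter acts mainly in mammary epithelium, and a whole tumour also holds cells in which Cre is not active. Nothing in the labels says that the tumours within a genotype were from different mice, so the p-values measure the spread between these samples. The table held 230.4 to 484.0 M counts per library (M, 1000000 counts). The levels of the targeted genes overlapped between all groups: C3 had 43.3 to 182 CPM (counts per 1000000 counts, scaled by library) in WT, 41.6 to 75.1 in C3_KO and 43.4 to 273 in S1pr1_KO tumours, and S1pr1 had 2.88 to 8.02 CPM in WT, 5.94 to 9.94 in C3_KO and 2.59 to 7.43 in S1pr1_KO tumours. All 13 epithelial and tumour markers examined were counted in every library, with a summed level of 2676 to 7217 CPM. Single libraries stood apart in markers of other tissues. C3_KO replicate 3 held 95518 CPM of 8 milk protein genes against 1288 to 5951 elsewhere. S1pr1_KO replicates 1 and 4 held 152493 and 9840 CPM of 10 salivary gland genes against 9.44 to 268 in the other 10 libraries. In each bulk tumour, fewer cells of a type and less RNA per cell cannot be told apart.

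Stretches of 60 bases of the coding part are shown for 5 families to let a reader see how close parent and copy are. They come from GENCODE M21 transcripts (build GRCm38), run 5′ to 3′ on the transcript strand, and capitals mark the bases that differ from the parent. Positions in the authors' build, GRCm39, are not given here. Each stretch, aligned without gaps, was picked for the most changes in its least changed copy, with ties settled by the most changes in total. The first family is that of Rpl34, a large subunit protein, whose copies changed in steps between libraries.
Rpl34: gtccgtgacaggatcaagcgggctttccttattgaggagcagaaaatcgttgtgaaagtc
Rpl34-ps1: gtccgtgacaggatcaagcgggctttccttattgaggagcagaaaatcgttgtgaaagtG
Rpl34-ps2: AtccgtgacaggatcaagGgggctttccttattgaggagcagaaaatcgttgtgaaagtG
The family of Rpl30, also of the large subunit, follows for the same reason.
Rpl30: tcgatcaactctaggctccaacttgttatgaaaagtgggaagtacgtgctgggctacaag
Rpl30-ps9: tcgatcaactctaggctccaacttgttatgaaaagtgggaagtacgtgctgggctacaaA
Rpl30-ps10: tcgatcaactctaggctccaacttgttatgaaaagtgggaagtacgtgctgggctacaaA
The family of Rps2, a small subunit protein near the path of the messenger RNA, had copies that stepped in other libraries.
Rps2: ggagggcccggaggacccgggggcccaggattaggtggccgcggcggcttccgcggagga
Rps2-ps6: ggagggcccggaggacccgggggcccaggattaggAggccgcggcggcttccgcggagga
Rps2-ps13: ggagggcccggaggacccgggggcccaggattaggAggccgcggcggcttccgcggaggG
The family of Rps12, a small subunit protein, had the most copies and holds steady and variable ones.
Rps12: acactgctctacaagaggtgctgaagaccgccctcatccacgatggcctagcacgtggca
Rps12-ps4: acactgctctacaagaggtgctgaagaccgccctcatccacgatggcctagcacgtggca
Rps12-ps17: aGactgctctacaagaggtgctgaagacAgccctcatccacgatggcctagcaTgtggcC
The family of Rpl36a, of the large subunit, holds a copy that is closer to another gene, Rpl36al.
Rpl36a: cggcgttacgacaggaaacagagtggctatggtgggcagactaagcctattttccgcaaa
Rpl36a-ps2: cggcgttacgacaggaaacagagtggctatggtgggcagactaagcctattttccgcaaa
Rpl36a-ps3: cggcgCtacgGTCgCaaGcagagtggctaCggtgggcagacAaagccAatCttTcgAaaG
Rpl36al: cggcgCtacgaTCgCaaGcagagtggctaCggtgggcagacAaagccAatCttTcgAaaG
The stretches show how few bases separate the copies: Rpl30-ps9 and Rpl30-ps10 are alike in theirs, and Rps12-ps4 and Rpl36a-ps2 do not differ from the parent in theirs. Rpl36a-ps3 carries 13 changes from Rpl36a in its stretch, and Rpl36al carries 12.

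Of the 167 pseudogenes, 152 had a transcript in GENCODE M21, of which 148 were annotated as processed pseudogenes and 4 as protein coding. They lay on 20 chromosomes, 19 of them on X, and 6 lay on the chromosome of their parent. The span of another gene overlapped 21 on the same strand and 37 on the opposite strand, and reads of such a gene can fall on the pseudogene. Whether the authors' counting used strand is not given in the sources used here. Over the annotated transcripts the aligned coding part was 98.8% identical to the parent in the median, and 15 pseudogenes had no substitution in it. Reads are short, so likeness was also measured as the share of a pseudogene's 50-base windows that occur unchanged in a transcript of the parent. That share had a median of 51.4% (quartiles 33.2 and 76.5%). All windows were in the parent for 13 pseudogenes, and none was for 4, Rpl36a-ps3, Rpl18-ps1, Rpl23a-ps2 and Rpl31-ps6.

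The pseudogenes together took 0.345 to 0.918% of all counts in a library, and the 51 parents took 2.55 to 5.61%. Per pseudogene, the mean count over the libraries ran from 53.1 to 119161. As a percent of the parent's count in the same library, averaged over the 12 libraries, pseudogenes ran from 0.0117% (Rpsa-ps4) to 119% (Rpl21-ps15), with a median of 0.959% and quartiles of 0.218 and 6.17%. At 10% or more of the parent stood 26 pseudogenes, 54 lay between 1 and 10%, and 87 lay under 1%. So a small group of copies held most of the counts while most stayed far below their parent.

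The copies with the highest CPM were, in order, those of Rpl21, Rpl15, Rps12, Rps6, Rpl7a, Rps2 (Rps2-ps10 and Rps2-ps13) and Rpl34. Rpl21-ps15, which lies opposite to the kinase gene Wnk3, had 330 CPM in the mean and 75.0 to 151% of the Rpl21 count. Its ratio was 75.0% in WT replicate 2 and 92.0% in S1pr1_KO replicate 1, and it lay between 98.8 and 151% elsewhere. Rpl15-ps3 had 314 CPM and 34.1 to 48.0% of Rpl15, a large subunit gene. Rps12-ps3 had 268 CPM and 52.6 to 56.3% of Rps12. Rps6-ps4, a copy of the gene of the small subunit's main phosphoprotein, had 263 CPM and 19.7 to 27.0% of Rps6. Rpl7a-ps11 had 256 CPM and 26.5 to 32.0% of Rpl7a. Rpl15-ps3, Rps12-ps3 and Rps6-ps4 are among the 13 with every 50-base window in the parent, whereas Rpl21-ps15 had 67.3% of its windows in Rpl21 and 88.5% in a predicted gene, Gm10240. The 2 rows with more counts in some libraries than their parent, Rpl21-ps15 and Rpl34-ps1, were thus not the closest copies.

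Per length, on the authors' FPKM (fragments scaled by gene length and library total), 6 pseudogenes had a mean ratio to the parent above 1. The FPKM ratio was 8.37 for Rpl21-ps15, 5.37 for Rpl34-ps1, 2.76 for Rps12-ps3 and 1.66 for Rpl15-ps3. Rps12-ps4 and Rps10-ps2 followed at 1.55 and 1.00. The lowest FPKM ratios were those of Rps2-ps9 at 0.000368, Rpsa-ps4 at 0.000419, Rps2-ps11 at 0.000446 and Rplp0-ps1, a copy of the gene of the ribosomal stalk protein, at 0.000507. The deposited length of a parent was 383 to 6270 bases with a median of 2015 over the 167 pairs, against 151 to 1323 bases with a median of 474 for the pseudogenes. FPKM divides a count by that length, so the FPKM ratio is higher than the count ratio in the 164 pairs with the longer parent. In the other 3, Rpl29-ps2, Rpl36-ps12 and Rps15-ps3, the pseudogene has the longer row.

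Likeness and level went together across pseudogenes. The 13 with every window in the parent had 3.43 to 54.0% of the parent's count, with a median of 10.6%. The median was 8.14% for the 27 with 75% or more, 0.852% for the 40 with 50 to 75%, 0.394% for the 44 with 25 to 50% and 0.0869% for the 28 under 25%. Spearman's rho between the share of windows in the parent and the percent of the parent's count was 0.75 over 152 pseudogenes. That is a correlation across genes of the same libraries, several of them copies of 1 parent or of each other, and it carries no p. A read that lies inside a shared window matches pseudogene and parent alike. How the authors assigned reads that match several places is not given in the sources used here. A nuclear pseudogene of mitochondrial origin, Gm10925, had a count at 99.0 to 100.3% of that of mt-Atp6.

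**Figure D1:**
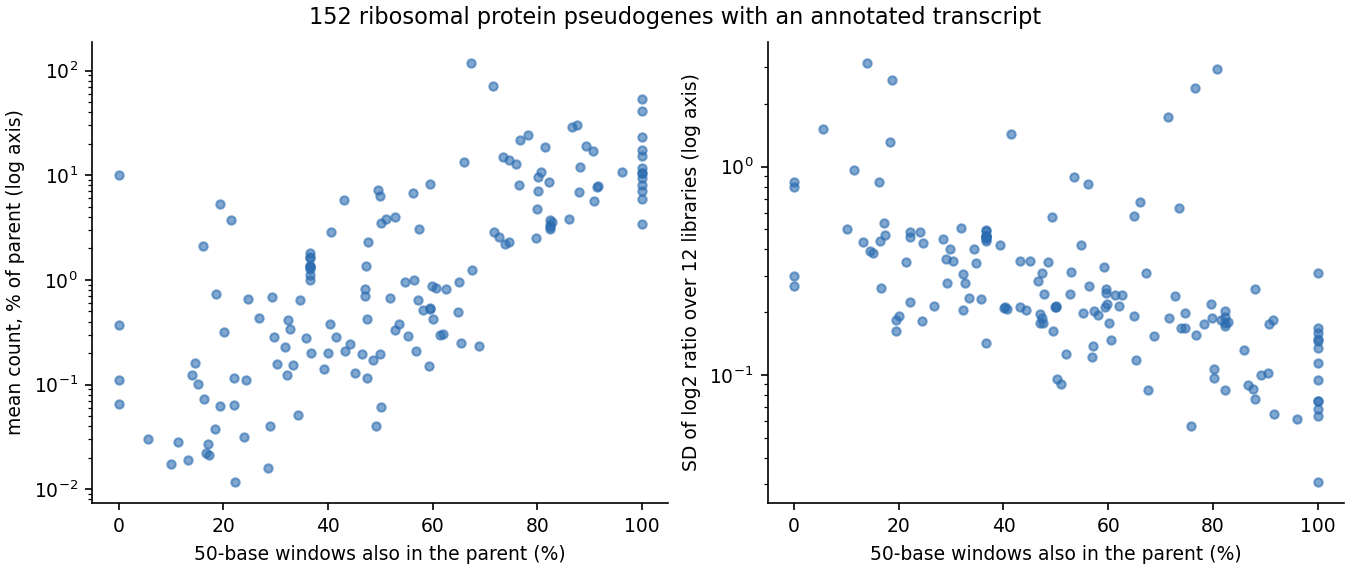
Each point is 1 of the 152 pseudogenes with an annotated transcript. The x axis gives the percent of its 50-base windows that are also in the parent, and the y axes give, on log scales, its mean count as percent of the parent (left) and the SD of the log2 ratio over 12 libraries (right). Points rise to the right on the left side (rho 0.75) and fall to the right on the right side (rho -0.65).

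Sets of pseudogenes with the same annotated transcript gave a measure of how far counts of alike rows can differ. The 5 copies Rps12-ps11 to Rps12-ps15 have 1 sequence over 399 bases, and the highest of their counts was 1.42 to 1.57 times the lowest in each library. The 4 Rpl35a copies (-ps2, -ps3, -ps4 and -ps6) differed by 1.15 to 1.41 times, the 3 Rps12 copies (-ps6, -ps17 and -ps18) by 1.65 to 1.95 times, and Rps19-ps1 and Rps19-ps2 by 1.12 to 1.21 times. Together with Rps12-ps16, added after its values were seen, the 8 Rps12 copies make 9 rows that moved as 1. The coefficient of variation (CV) of each row's share within the 9 was 0.825 to 3.63% over the 12 libraries, against 29.7 to 33.5% for its percent of Rps12. Their summed count was 10.9, 14.5, 17.6 and 15.8% of Rps12 in WT replicates 1 to 4. It was 19.2, 14.0, 10.2 and 9.38% in C3_KO replicates 1 to 4 and 14.1, 7.27, 9.55 and 7.53% in S1pr1_KO replicates 1 to 4. The groups overlapped, and these 9 rows are near to 1 measurement rather than 9.

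The ratio to the parent was steady for most members. The SD of its log2 value over 12 libraries had a median of 0.21 and ran from 0.03 to 3.15, and for 106 of 167 pseudogenes the highest ratio was less than 2 times the lowest. It was steadiest for Rps12-ps3, whose SD was 0.03, and next for Rpl17-ps10, Rpl10-ps3 and Rpl10-ps1. Rpl17-ps10 had 12.0 to 13.6% of Rpl17, Rpl10-ps3 had 9.92 to 11.3% of Rpl10, and Rpl10-ps1 had 7.71 to 9.06% of it. Rps12-ps3 correlated with Rps12 at r = 1.00 (0.9995) in log2 CPM over the libraries, the highest of the 167. Over all 167 the correlation with the parent had a median of 0.96 and a lowest value of -0.67. Among the 80 cytosolic ribosomal protein genes, the parent had the highest correlation with its pseudogene for 54 of 167 and was among the first 5 for 94. Its rank had a median of 4 and ran from 1 to 80. All 80 share library effects, and these correlations describe these 12 libraries.

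For Rpl36a-ps3 the closest gene was not the named parent. Of its 50-base windows 81.6% were in Rpl36al, a retained intronless relative of Rpl36a, and none was in Rpl36a. Its correlation was 0.98 with Rpl36al and 0.88 with Rpl36a, which ranked 16 of 80. Its count was 13.4 to 19.2% of Rpl36al, a CV of 9.87%, and 6.93 to 14.2% of Rpl36a, a CV of 20.8%.

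A few families changed in steps rather than by degrees, and the libraries that stepped were not the same for each. Rpl34-ps1 had 114, 118, 131 and 114% of the Rpl34 count in WT replicates 1 to 4. It had 11.6, 112, 108 and 110% in C3_KO replicates 1 to 4, and 10.8, 10.9, 12.5 and 10.5% in S1pr1_KO replicates 1 to 4. All 4 S1pr1_KO tumours and C3_KO replicate 1 were at 12.5% or less, the other 7 were at 108% or more, and no library lay between. Rpl34-ps2 followed the same libraries, at 0.908 to 1.45% in those 7 and 0.0259 to 0.0516% in the other 5. The predicted gene Gm10154, which holds 83.3% of the windows of Rpl34-ps1, had 61.4 to 143 CPM in the 7 libraries and 12.5 to 21.8 CPM in the 5. The parent Rpl34 did not step: it had 250 to 335 CPM in WT, 135 to 418 in C3_KO and 193 to 542 in S1pr1_KO tumours.

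The Rpl30 copies stepped in a different set. Rpl30-ps9 had 17.7, 18.7, 17.7 and 18.1% of Rpl30 in WT replicates 1 to 4. It had 17.5, 18.5, 19.6 and 0.391% in C3_KO replicates 1 to 4, and 0.343, 0.286, 0.478 and 0.269% in S1pr1_KO replicates 1 to 4. Here C3_KO replicate 4 joined the S1pr1_KO tumours, and C3_KO replicate 1 did not. Rpl30-ps10 had 13.2 to 14.6% in the 7 high libraries and 0.486 to 0.651% in the 5 low ones, and Rpl30-ps1 had 0.484 to 0.645% and 0.136 to 0.202%. Rpl30-ps9 shares 97.6% of its windows with Gm12191, which had 104 to 161 CPM in the 7 high libraries and 2.54 to 6.37 CPM in the 5 low ones. Rpl30-ps8 had 0.484 to 0.736% in the same 7 and 0.250 to 0.360% in the same 5. Rpl30-ps3, which shares 41.5% of its windows with Rpl30, varied without such a step: 0.132, 0.329, 0.142 and 0.898% in WT, 0.108, 0.765, 0.505 and 0.0639% in C3_KO and 0.0690, 0.0420, 0.218 and 0.105% in S1pr1_KO replicates 1 to 4. Rpl30 itself had 174 to 329 CPM, with overlapping groups.

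Among the 9 Rps2 copies, Rps2-ps6, -ps8, -ps10 and -ps13 stepped in yet another set, and the others are not described by library here. Rps2-ps8, for which no sequence was at hand, had 8.71, 9.15, 9.55 and 8.00% of Rps2 in WT replicates 1 to 4. It had 2.16, 2.07, 2.39 and 8.23% in C3_KO replicates 1 to 4, and 2.38, 1.87, 1.86 and 1.96% in S1pr1_KO replicates 1 to 4. C3_KO replicate 4, low in the Rpl30 copies, was as high here as the WT tumours. Rps2-ps6 had 10.0 to 12.0% in these 5 high libraries and 3.25 to 4.36% in the other 7. Rps2-ps13 had 19.1 to 22.4% against 7.41 to 9.41%, and Rps2-ps10 had 20.7 to 23.8% against 8.42 to 11.2%. The 3 sequenced copies share 59.4 to 88.0% of their windows with each other, so they are partly 1 signal. Seen as CPM, the step of C3_KO replicate 4 was hidden: Rps2-ps8 had 46.5 CPM there, against 125 to 213 in WT and 26.5 to 40.8 in the other C3_KO tumours, and its Rps2 level of 565 CPM was the lowest of all 12.

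At the low end, Rpl29-ps5 had 0.107 to 0.141% of Rpl29 in WT. In C3_KO replicates 1 to 4 it had 0.00588, 0.146, 0.668 and 0.141%. In S1pr1_KO replicate 1 it had no count, and in replicates 2 to 4 it had 0.00664, 0.00373 and 0.00262%. Its low libraries were those of the Rpl34 copies. The 0.668% in C3_KO replicate 3 went with an Rpl29 level of 78.7 CPM there, against 148 to 1099 in the other 11 libraries. Rpl31-ps15, named after its values were seen, had 0.0325 to 0.0748% of Rpl31 in WT and in C3_KO replicates 1 to 3. In C3_KO replicate 4 and the S1pr1_KO tumours it had 0.00423 to 0.0215%. Like Rpl29-ps5, this copy reached the count threshold in no S1pr1_KO library. Its lower values there are thus partly set by the choice of members.

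**Figure D2:**
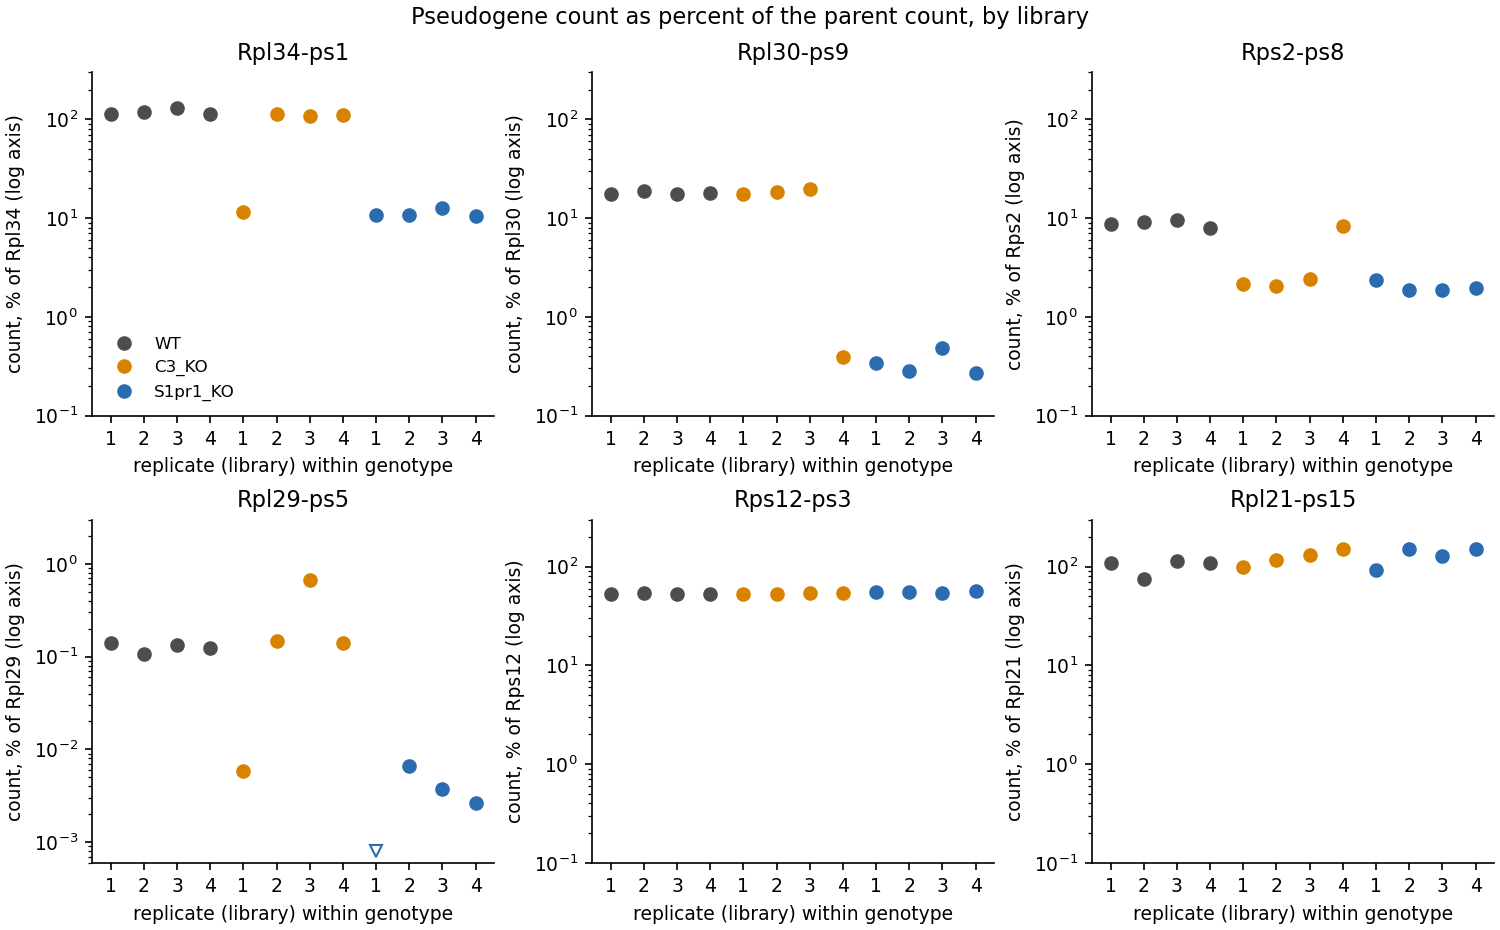
Each panel is 1 pseudogene, each point is 1 library, and the log y axis gives the pseudogene count as percent of the parent count. The open triangle marks a library with no count. Rpl34-ps1, Rpl30-ps9, Rps2-ps8 and Rpl29-ps5 fall into high and low libraries, with C3_KO tumours on both sides, while Rps12-ps3 stays between 52.6 and 56.3%.

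The first comparison sets the tumours labelled S1pr1_KO against WT. In S1pr1_KO against WT tumours, 166 of 167 pseudogenes had a log2 fold change below 0, with a median of -1.06, against -0.80 for the 51 parents and 0.03 for all genes tested. None of the 167 passed an adjusted p of 0.05 in edgeR's quasi-likelihood test with Benjamini-Hochberg adjustment over 30660 genes, where 0.0% of all genes passed. At an unadjusted p under 0.05 stood 135 pseudogenes, 28 parents and 4743 of all genes. In 80 pseudogenes the 4 S1pr1_KO libraries all lay below the 4 WT libraries in CPM, as did 4.8% of all genes. By subunit, the median was -1.05 for the 91 large subunit copies and -1.08 for the 76 small subunit copies. The smallest p-values were those of copies that stepped. Rps2-ps8 had a log2 fold change of -2.73 ± 0.40 (SE, edgeR adjusted p = 0.0536), Rpl30-ps10 of -4.87 ± 0.74 (edgeR adjusted p = 0.0536) and Rpl30-ps9 of -5.96 ± 0.91 (edgeR adjusted p = 0.0536). The sole pseudogene with a value above 0 was Rps27a-ps1, a copy of a gene that encodes a ubiquitin-ribosomal protein fusion, at 0.0556 to 0.382 CPM in S1pr1_KO and 0.0705 to 0.290 CPM in WT tumours.

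The count of calls depended on the method and on single libraries. DESeq2 called 42 of the 167 in this comparison and 955 of 27913 genes, and limma-voom with quality weights called 163 of the 167 and 7828 of 30660 genes, with all of these pseudogenes lower. Without S1pr1_KO replicate 3, edgeR called 91 of the 167, all lower, and 1330 of 31286 genes. That library had 90811 CPM of 80 ribosomal protein genes, within the WT range of 72742 to 97918, while the other 3 S1pr1_KO tumours had 30976 to 45064. Without C3_KO replicate 1 edgeR called 2 of the 167 and 9 genes in all, and without C3_KO replicate 4 it called 4 and 32.

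The second comparison sets the tumours labelled C3_KO against WT. In C3_KO against WT tumours, 165 of 167 pseudogenes had a log2 fold change below 0, with a median of -0.61, the same as the -0.61 of the parents, against 0.05 for all genes. None of the 167 was called by edgeR, as 0.0% of all genes, and 15 had an unadjusted p under 0.05, with 1909 of all genes. DESeq2 called 4 of the 167 and 82 genes in all, limma-voom 1 and 5, and edgeR without S1pr1_KO replicate 3 called 3 and 8. The C3_KO libraries lay below the WT libraries without overlap for 20 pseudogenes, and for 1.72% of all genes. The smallest p-values were those of the Rps2 copies. Rps2-ps8 had a log2 fold change of -2.23 ± 0.39 (SE, edgeR adjusted p = 0.636), Rps2-ps6 of -1.80 ± 0.38 (edgeR adjusted p = 0.730) and Rps2-ps13 of -1.68 ± 0.37 (edgeR adjusted p = 0.765).

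Between the knockouts, S1pr1_KO against C3_KO, 163 of 167 had a value below 0, with a median of -0.43, against -0.18 for the parents and -0.03 for all genes. None was called by edgeR, as 0.0% of all genes, and 15 had an unadjusted p under 0.05, with 1042 of all genes. DESeq2 called 7 of the 167 and 114 genes in all. Without C3_KO replicate 1 edgeR called 1 of the 167 and 2 genes in all, and without C3_KO replicate 4 it called 2 and 3. Only 6 pseudogenes did not overlap, all lower, beside 0.838% of all genes. Rpl30-ps9 had a log2 fold change of -5.32 ± 0.88 (SE, edgeR adjusted p = 0.358), Rpl30-ps10 of -4.24 ± 0.71 (edgeR adjusted p = 0.358) and Rpl34-ps2 of -4.13 ± 0.75 (edgeR adjusted p = 0.476). In each of these copies 1 C3_KO library was as low as the S1pr1_KO tumours, and the groups overlapped. Rpl34-ps2 reached the count threshold in no S1pr1_KO library, so its lower value in those tumours is partly set by the choice of members. The comparisons share libraries, so their values stand side by side and are not independent.

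**Figure D3:**
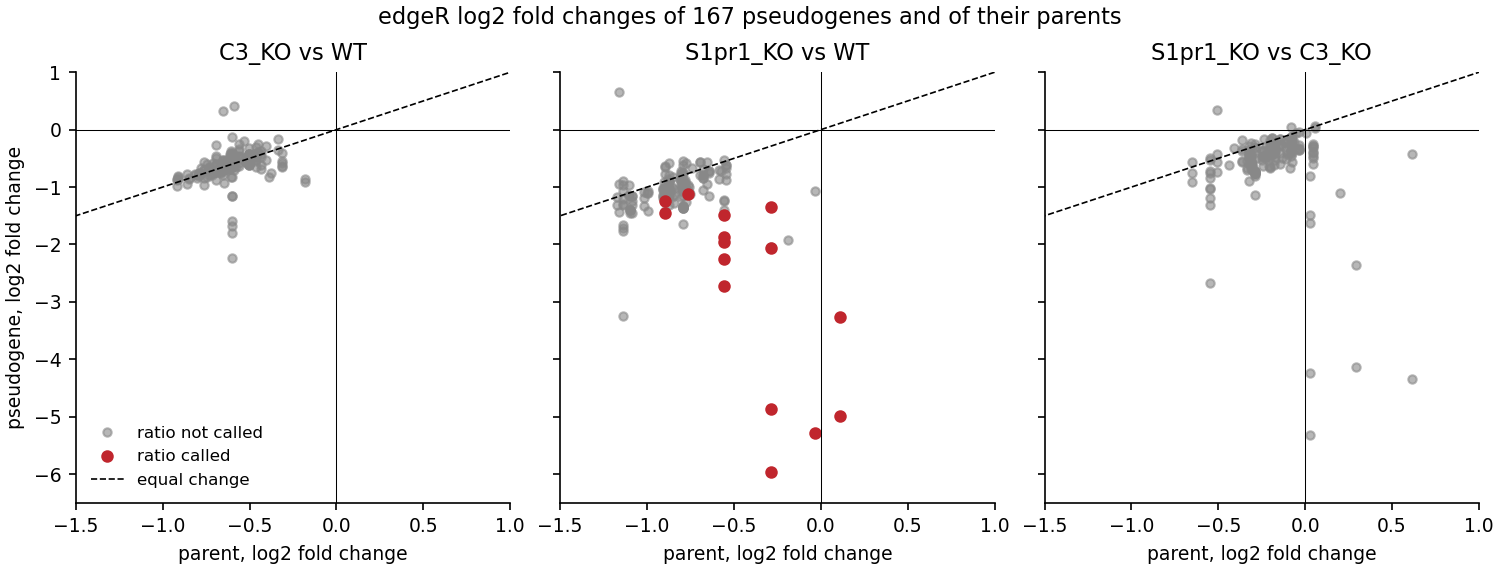
Each point is 1 of 167 pseudogenes in 3 comparisons of 4 against 4 libraries. The x axis gives the edgeR log2 fold change of the parent and the y axis that of the pseudogene, the dashed line marks equal change, and red points have a ratio to the parent called at an adjusted p under 0.05. In C3_KO against WT most points lie along the line, while in S1pr1_KO against WT most lie below it and 15 are red.

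The genes around the ribosome moved with the pseudogenes in sign, and none was called by edgeR in any comparison. Of 80 cytosolic ribosomal protein genes, 79 had a log2 fold change below 0 in S1pr1_KO against WT tumours (median -0.83, 46 at an unadjusted p under 0.05) and 80 in C3_KO against WT (median -0.60, 4 at an unadjusted p under 0.05). Of 18 other genes whose messages start with the oligopyrimidine tract that ties translation to growth signals, all 18 lay below 0 in both comparisons, with medians of -0.62 and -0.45. Of 18 ribosome biogenesis genes, 17 lay below 0 in S1pr1_KO against WT, with a median of -0.53, and 14 in C3_KO against WT, with a median of -0.27.

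Since parents were low too, the pseudogene count was also set against the parent count of the same library. How reads that match both were assigned is not given, so this ratio need not reflect the RNA of the pseudogene alone. In the median over the 167 pseudogenes, the pseudogene count was 0.994, 0.912, 1.03 and 1.01% of the parent count in WT replicates 1 to 4. It was 1.06, 1.01, 0.970 and 0.967% in C3_KO and 0.778, 0.673, 0.771 and 0.753% in S1pr1_KO replicates 1 to 4. The means were 0.986 ± 0.0515% in WT, 1.00 ± 0.0427% in C3_KO and 0.744 ± 0.0483% in S1pr1_KO tumours (SD, n = 4). All 4 S1pr1_KO tumours lay below the other 8, and WT and C3_KO overlapped. S1pr1_KO replicate 3 was among them although its parents took 5.28% of all counts, within the WT range of 4.64 to 5.61%. The same median over 187 other named pseudogenes with a parent row overlapped between all groups, at 3.05 to 3.48% in WT, 3.30 to 4.36% in C3_KO and 2.76 to 3.97% in S1pr1_KO tumours. The ratio of sums, that is summed pseudogene counts over summed parent counts, was 15.7 to 16.4% in WT, 14.3 to 15.7% in C3_KO and 12.3 to 13.8% in S1pr1_KO tumours, where all 4 S1pr1_KO tumours were lowest.

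**Figure D4:**
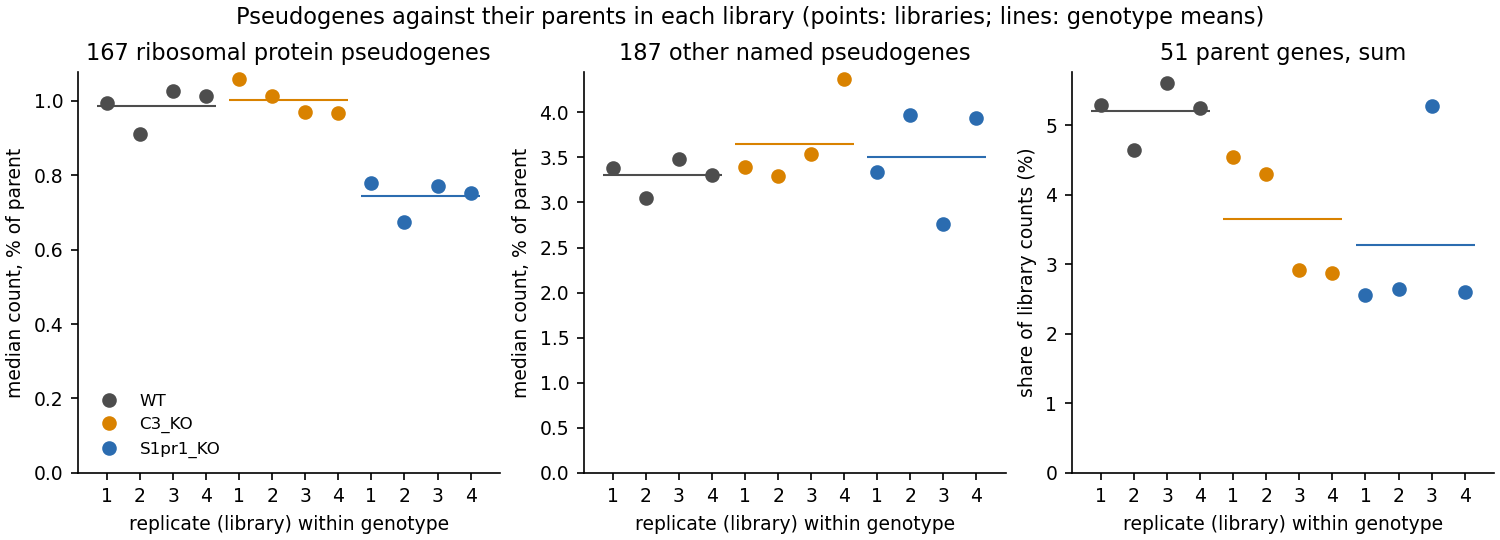
Points are libraries and lines are genotype means. The y axes, from 0, give the median pseudogene count as percent of the parent count for the 167 ribosomal protein pseudogenes (left) and for 187 other named pseudogenes (middle), and the percent of library counts taken by the 51 parents (right). The 4 S1pr1_KO tumours lie at 0.673 to 0.778% on the left, below all others, and overlap with them in the other panels.

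The log2 ratio of pseudogene to parent was tested with limma over all 354 named pairs. In S1pr1_KO against WT tumours, 25 pairs were called at an adjusted p under 0.05, which is 7.06% of all pairs, 24 of them lower. Of the 167 ribosomal protein pseudogenes, 15 were called, all lower (6.78% of all pairs were), from 7 parents, and 134 had a ratio difference below 0, with a median of -0.22 against -0.11 for all pairs. The ratios of 38 did not overlap and were lower, beside 17.5% of all pairs. The 15 were Rpl30-ps1, -ps8, -ps9 and -ps10, Rps2-ps5, -ps6, -ps8, -ps10 and -ps13, Rpl34-ps1 and -ps2, Rpl29-ps5, Rpl13-ps3, Rpl18-ps2 and Rpsa-ps9. Copies of 1 parent share sequence, so the 15 are fewer than 15 separate measurements. Rpl29-ps5 and Rpl34-ps2 reached 100 counts in no S1pr1_KO library and entered the set through the groups in which they are high, so that their lower value there is partly set by the choice. Another 11 of the 15 reached it in all 12 libraries, while Rpl30-ps1 and Rps2-ps5 reached it in 1 S1pr1_KO library each.

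By smallest p, the first was Rpl30-ps1, with a log2 ratio difference of -1.80 ± 0.28 (SE, limma adjusted p = 0.00780). Rps2-ps8 fell by 2.14 ± 0.37 relative to Rps2, Rps2-ps13 fell by 1.37 ± 0.24 and Rps2-ps6 fell by 1.66 ± 0.29, each at a limma adjusted p of 0.00798. Rpl34-ps1 fell by 3.42 ± 0.62 relative to Rpl34 (limma adjusted p = 0.00798) and Rpl30-ps9 fell by 5.74 ± 1.06 relative to Rpl30 (limma adjusted p = 0.00828). All 6 were lower in 4 of 4 S1pr1_KO tumours than in any WT tumour. Smaller and more even differences were called for Rpl18-ps2 (0.302 to 0.381% of Rpl18 in WT, 0.208 to 0.281% in S1pr1_KO), Rpl13-ps3 (0.912 to 1.30% of Rpl13 against 0.510 to 0.878%) and Rpsa-ps9 (0.143 to 0.180% of Rpsa, the gene of the small subunit protein also known as a laminin receptor, against 0.117 to 0.139%). In those 3 the C3_KO tumours, at 0.311 to 0.335, 1.03 to 1.18 and 0.160 to 0.181%, were near or within the WT range. Their calls depended more on the processing. Among 17 alternative fits, Rpl18-ps2 was not called in 7, and Rpl13-ps3 and Rpsa-ps9 were not called in 9 each. Each of the 6 ratios of smallest p was not called in 1 alternative.

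In C3_KO against WT tumours no pair was called (0.0%), with 37 of 354 pairs and 8 of 167 pseudogenes at an unadjusted p under 0.05 in limma. The ratio was below 0 for 83 of 167, with a median of 0.00. In S1pr1_KO against C3_KO tumours no pair was called (0.0%), with 61 pairs and 41 pseudogenes at an unadjusted p under 0.05, and 150 of 167 were below 0, with a median of -0.22. Single C3_KO libraries entered these counts. Without C3_KO replicate 4, limma called 4 of the 167 and 10 of the 354 pairs in C3_KO against WT, and 5 of the 167 and 5 pairs in all in S1pr1_KO against C3_KO. Without C3_KO replicate 1 it called 3 of the 167 and 4 pairs in all in S1pr1_KO against C3_KO. Without C3_KO replicate 3 and S1pr1_KO replicates 1 and 4, the libraries with the high milk and salivary sums, an alternative chosen after the data were seen, S1pr1_KO was left with 2 tumours and limma called none of the 167 ratios and 0 of the 354 pairs in S1pr1_KO against WT, where the 15 kept their sign at a lowest adjusted p of 0.108.

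Some marker lists of other cells lay on 1 side in sign and others were split. None of their genes was called by edgeR. Of all 30660 genes, 15838 had a log2 fold change above 0 in S1pr1_KO against WT and 16622 in C3_KO against WT. All 10 B and plasma cell markers had a log2 fold change above 0 in S1pr1_KO against WT tumours, with summed levels of 9.16 to 22.1 CPM in WT, 2.82 to 25.6 in C3_KO and 4.23 to 213 in S1pr1_KO tumours. All 10 adipocyte markers did as well, at 32.8 to 335, 108 to 331 and 55.3 to 1263 CPM. In S1pr1_KO replicates 1 to 4 the B and plasma cell sums were 213, 102, 4.23 and 9.85 CPM. The adipocyte sums there were 1263, 1087, 55.3 and 120 CPM. No marker of these lists was at 0 in any library, and of the 10 salivary gland markers Muc19, Prb1 and Smgc were at 0 in some. In S1pr1_KO replicate 3 the B and plasma cell, adipocyte and salivary sums were 4.23, 55.3 and 46.3 CPM, the first below the WT range and the others within it, and its median pseudogene ratio was 0.771%. All 8 blood endothelial markers lay above 0 in S1pr1_KO against WT (7 at an unadjusted p under 0.05) and in C3_KO against WT, with sums of 66.0 to 138 CPM in WT, 121 to 173 in C3_KO and 133 to 250 in S1pr1_KO tumours. All 8 fibroblast markers did so in both, at 1428 to 4080, 2294 to 4400 and 2060 to 4048 CPM. All 8 skin keratinocyte markers lay above 0 in C3_KO against WT and 7 of them in S1pr1_KO against WT, at 31.7 to 60.3, 35.4 to 643 and 23.5 to 178 CPM. All 10 adipocyte and all 8 milk protein markers also lay above 0 in C3_KO against WT. In S1pr1_KO against WT, 5 of the 8 milk protein markers lay below 0. Of 8 macrophage markers, 5 lay above 0 in S1pr1_KO against WT and 3 in C3_KO against WT. Of 8 skeletal muscle markers, 7 lay below 0 in S1pr1_KO against WT and 8 in C3_KO against WT. Of the 10 salivary gland markers, 9 lay above 0 in S1pr1_KO against WT and 2 in C3_KO against WT. The part of other cells in the pseudogene results was not tested.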

How the data were processed

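RNA of 12 tumours, 4 per genotype, was analysed from 2 deposited tables. Genotypes came from the genotype label, and replicates were numbered in accession order, so a number only names a library. The authors deposited raw counts per gene as whole numbers. The authors also deposited FPKM values, of which 682317 of 682320 equalled count, gene length and column total recombined within a relative 1e-04. Per the submitters' processing notes, StringTie and GRCm39 (mm39) were named, with no aligner, counting options or strand setting (not given in the sources used here).

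Counts were tested with edgeR 4.0.16 (R 4.3.3): default filter (30660 genes), TMM scaling, robust quasi-likelihood fit of all 12 libraries (9 residual degrees of freedom), Benjamini-Hochberg adjustment, call at 0.05. The common biological coefficient of variation was 0.564. Ratios, log2((pseudogene + 0.5)/(parent + 0.5)) of counts, were tested with limma 3.58.1 (robust) over 354 named pairs with the same threshold. The edgeR fit and the limma fit of ratios were tested on simulated data for S1pr1_KO against WT, and the other statistics were not. Correlations used log2 CPM with a prior count of 2. Likeness used 50-base windows and local alignment to GENCODE M21 transcripts, matched by symbol. Members named were the 8 of highest CPM, the 4 of highest and lowest FPKM ratio, the 4 of largest and smallest SD of log2 ratio, the 3 of smallest p per comparison (6 for called ratios) and those next to the threshold; copies that share a parent with them, the 4 without a shared window and the other called ratios were named after their values were seen. Members and lists were chosen with earlier results of these data known. Alternatives were DESeq2 1.42.0, limma-voom, limma on log2(FPKM + 1), other scaling and filters, and each library left out. A result on 1 other gene is not reported here.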

Additional observations from a re-analysis of the deposited data

Results flagged for a closer look

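In groups of 4 libraries, the count as percent of the parent was examined for a value far from the other 3 (Dixon's test at its 95% critical value) in 24 named pseudogenes, 72 groups in all. Of these, 10 were found. Chance flags about 1 in 20 groups of members not chosen for their values, but the named members were in part chosen for a large spread or a small p and several move together, so the 10 cannot be set against that rate. In C3_KO replicate 1, Rpl34-ps1 was at 11.6% against 108 to 112% in the other C3_KO tumours, and Rpl34-ps2 was at 0.0322% against 1.20 to 1.29%. In C3_KO replicate 4, Rpl30-ps9 was at 0.391% against 17.5 to 19.6%, and Rpl30-ps10 was at 0.581% against 13.2 to 14.6%. The same library was high in the Rps2 copies, with Rps2-ps8 at 8.23% against 2.07 to 2.39%, Rps2-ps6 at 11.3% against 3.72 to 4.36%, Rps2-ps13 at 19.7% against 7.82 to 9.41% and Rps2-ps10 at 22.6% against 9.11 to 11.2%. These 8 values come from 3 families of copies of 1 parent each. In WT, Rpl15-ps3 was at 42.0% in replicate 1 against 45.0 to 45.5%, and Rpl21-ps15 was at 75.0% in replicate 2 against 108 to 114%.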

How the results depend on the processing

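No paired analysis was possible because the labels give no replicate numbers that are shared between genotypes. Of the 167 pseudogenes, edgeR called in S1pr1_KO against WT 0 as reported, 7 with library totals only, 6 with a CPM of at least 1 in 4 libraries, 6 with only the 8 libraries compared and 2 without a filter, limma on log2(FPKM + 1) called 10, DESeq2 42 and limma-voom 163, and leaving out each library gave 0 to 91. For C3_KO against WT DESeq2 called 4 and limma-voom 1 (0 to 3 with a library left out), and for S1pr1_KO against C3_KO DESeq2 called 7 (0 to 2). Over all genes, S1pr1_KO against WT gave 27, 23, 68, 10, 36, 955 and 7828 in the same order (0 to 1330). C3_KO against WT gave 82 with DESeq2, 1 on FPKM and 5 with limma-voom (0 to 8), and S1pr1_KO against C3_KO gave 114 with DESeq2 (0 to 3). Of the ratios of all pairs, 25 were called in S1pr1_KO against WT, 14 to 39 with a library left out and 0 without C3_KO replicate 3 and S1pr1_KO replicates 1 and 4, chosen after seeing the data. Of the ratios of the 167, 15 were called, 10 to 19 and 0. With both sides at 1000 counts or more, S1pr1_KO against C3_KO gave 19 pairs and 14 of the pseudogenes (0 to 5 for both with a library left out). C3_KO against WT gave 0 to 10 pairs and 0 to 4 pseudogenes. The median percent of the parent's count, 0.911 over the 12 libraries, was 0.401 for a threshold of 10 counts, 2.60 for 1000 counts and 14.7 as a ratio of sums, and 0.898 to 0.932 with a library left out. The cause was not tested, except that fewer tumours enter where libraries are left out. None of the 9 fold changes and 15 ratio differences named reversed; 45 of 251 alternatives left a ratio difference short of the threshold, 15 of them without those 3 libraries.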
